A study of Homo sapiens with 6 samples.

Results

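Telomerase and shelterin were followed through 10 genes in the established human cell line NTERA2/D1, which was derived from a teratocarcinoma of the testis and grows as embryonal carcinoma. The genes were the catalytic subunit TERT, the telomerase RNA-binding proteins DKC1, NOP10 and NHP2, and the shelterin genes TERF1, TERF2, TERF2IP, TINF2, POT1 and ACD. They were chosen by name, as all probe sets whose platform annotation names one of them, which gave 21 of the 54613 probe sets tested. Of these, 18 named 1 gene alone. The other 3 named DKC1 together with MIR664B and SNORA56, a microRNA and a small nucleolar RNA gene that lie inside DKC1 in the RefSeq gene table, so their signal is given as that of the DKC1 locus. One group of 3 arrays came from cells transfected with siRNA against human VAMP7, and the other group of 3 from cells transfected with a nonspecific scrambled siRNA. In both groups the siRNA was added 24 h after plating and RNA was taken after 72 h of transfection. The cells are otherwise the same line, with no other agent named in the labels. The comparison asks which transcripts differ when VAMP7 is lowered. Titles call the arrays of a group biological replicates 1 to 3, while the descriptions of the VAMP7 siRNA samples all carry the number 1. Separate cultures are not stated, and the p-values then reflect only how far these samples spread, which may be technical.

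Telomerase adds telomere repeats to chromosome ends by reverse transcription of its own RNA template, TERC. TERT is the reverse transcriptase and is usually the limiting subunit, silent in most somatic cells and active in pluripotent and embryonal carcinoma cells. Dyskerin (DKC1), NOP10 and NHP2 bind the H/ACA part of TERC and of many small nucleolar RNAs, and are made in all dividing cells. Shelterin coats the repeats: TERF1 and TERF2 bind the double strand, POT1 the single-stranded overhang, and TINF2, ACD (the TPP1 protein) and TERF2IP (RAP1) link or accompany them. TERC had no probe set that named it alone.

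All intensities are linear units of the deposited table, in which every array has nearly the same trimmed mean, and median intensity ran from 64.3 to 67.5 on the VAMP7 siRNA arrays and from 58.8 to 65.1 on the scrambled arrays. Replicate 1 of the VAMP7 siRNA group stood apart: along principal component 1 (27.2% of the variance) it scored 59.4, while the other 5 arrays lay between -21.5 and -4.76. All 12 measured embryonal carcinoma markers, among them SOX2, NANOG, LIN28A and DNMT3B, read at or above the median probe set. Of the other marker lists, 0 of 6 trophoblast genes, 0 of 3 leukocyte genes and 1 of 7 endoderm and yolk sac genes did so. So did 4 of 8 fibroblast genes and 6 of 8 neural genes. The median is thus a low bar. The embryonal carcinoma marker ZFP42 had means of only 81.1 on the VAMP7 siRNA arrays and 79.9 on the scrambled arrays. In the same order, DPPA2 had 100.5 and 108.3, and UTF1 179.8 and 150.7. The fit to the label of the line rests on bright markers, such as SOX2 at 19977 and 17212. Some markers of other lists were bright too, such as the neural TUBB3 at 14418 and 14147 and the fibroblast COL1A1 at 2872 and 2568. Others were dim, such as the neural GFAP at 19.9 and 9.41. Brightness alone therefore does not set the embryonal carcinoma list apart. POU5F1 and TDGF1 were listed but not measured. The summed trophoblast markers read 107.4 to 136.4 on the VAMP7 siRNA arrays and 54.3 to 96.2 on the scrambled arrays, without overlap. These genes were all dim, and none passed the test described below. INSL4 had means of 34.5 on the VAMP7 siRNA arrays and 7.71 on the scrambled arrays, and ERVW-1 32.8 and 6.52. HSD3B1 went the other way, at 4.55 and 18.6, as did GCM1 slightly, at 9.51 and 10.7. The summed embryonal carcinoma markers, at 82277 to 100347 on the VAMP7 siRNA arrays and 75395 to 95361 on the scrambled arrays, overlapped. The sums of the neural, fibroblast, endoderm and leukocyte lists overlapped too. The part of these differences in the results that follow was not tested. In bulk RNA, fewer cells of a type and less RNA per cell cannot be told apart.

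VAMP7, the vesicle SNARE of late endosomes that the siRNA targets, fell. It read 136.8, 175.4 and 148.6 on the VAMP7 siRNA arrays, against 2487, 2617 and 2741 on the scrambled arrays, so that 5.87% of the signal remained. The log2 fold change was -3.71 (SE 0.112, adjusted p = 0.000362). Fold changes here are differences of log2(intensity + 50), which understate the change of dim probe sets, and an adjusted p is that of limma with Benjamini-Hochberg adjustment over all 54613 probe sets.

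None of the telomerase and shelterin genes passed the test. Of their 21 probe sets, 0 were called at an adjusted p under 0.05, where 0.00183% of all probe sets were, namely the VAMP7 probe set alone. The 18 probe sets naming 1 gene alone likewise gave 0. At an unadjusted p under 0.05 there was 1 of the 21, TERT on the higher side, against 6.62% of all probe sets (4.13% higher and 2.48% lower). The groups did not overlap for 2 probe sets on the higher side (TERT and TERF2) and 2 on the lower side (NOP10 and POT1), against 12.4% of all probe sets (7.28% higher and 5.15% lower). Log2 fold changes ran from -0.26 to 0.53 with a median of -0.01 over the 21 probe sets, against a median of 0.02 over all probe sets. Of the 21, 10 lay above 0 and 11 below. The standard errors ran from 0.0924 to 0.318, and for 20 of the 21 the 95% interval held 0. With 3 arrays a group, 0.1 is the smallest two-sided p of an exact permutation test, which therefore makes no calls here.

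**Figure D1:**
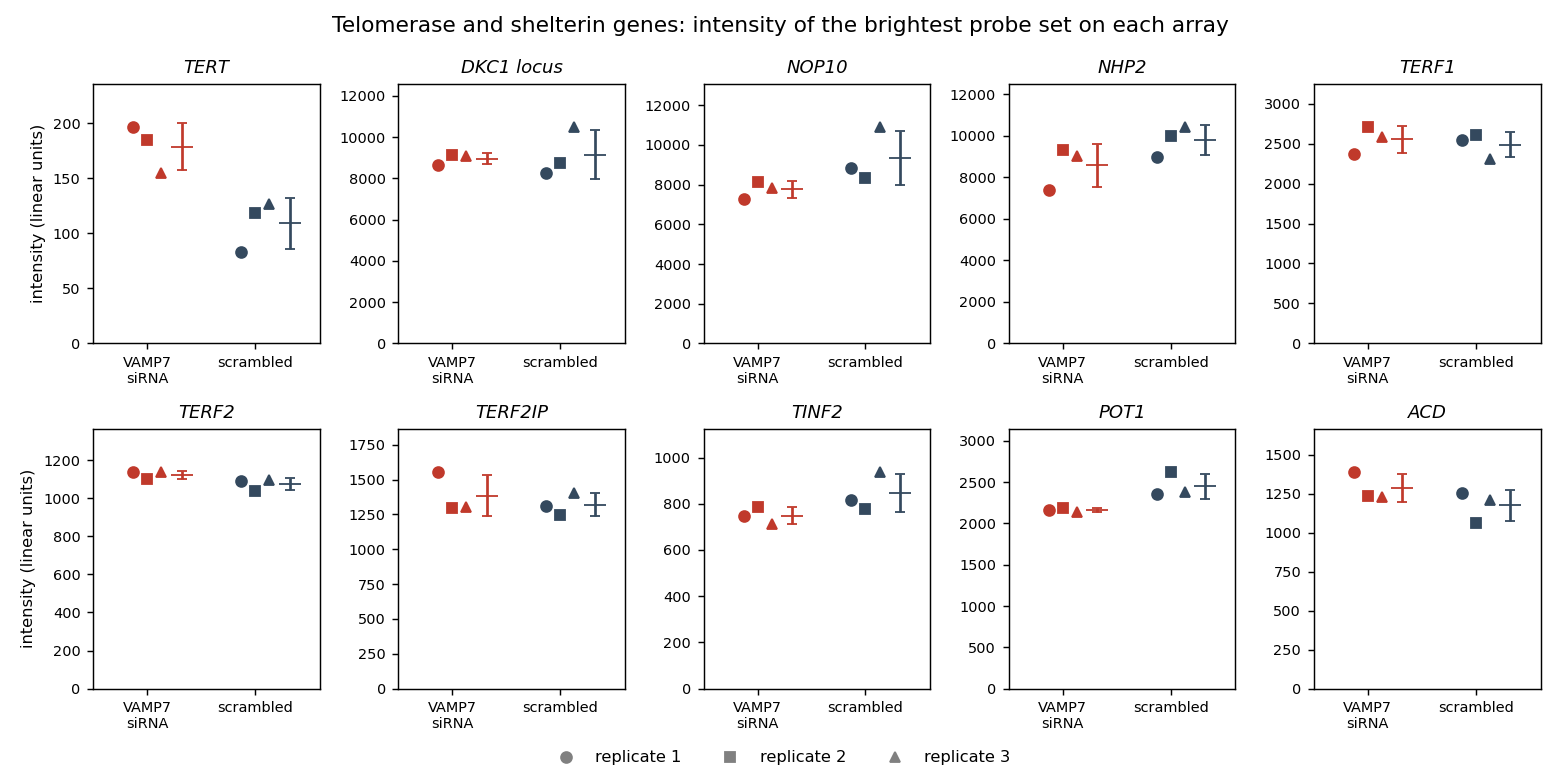
Intensity (linear units, each axis from 0) of the brightest probe set of each of the 10 genes, 1 panel a gene, with VAMP7 siRNA arrays on the left and scrambled arrays on the right; symbols are replicates 1 to 3 and the bars beside them mean ± SD (n = 3). TERT reads 155.1 to 196.6 on the VAMP7 siRNA arrays and 82.9 to 126.4 on the scrambled arrays, without overlap, while most panels show groups that overlap.

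TERT gave the largest difference among the 10 genes on its brighter probe set, which the platform annotation derives from a RefSeq transcript of TERT. It read 196.6, 184.8 and 155.1 on the VAMP7 siRNA arrays, against 82.9, 118.5 and 126.4 on the scrambled arrays. Each VAMP7 siRNA array was above each scrambled array, and within the scrambled group replicate 1 was the low one. The means were 178.8 ± 21.4 and 109.2 ± 23.2 (SD, n = 3 each), a ratio of 1.64. On the log2 scale the difference was 0.53 (SE 0.145, 95% interval 0.19 to 0.87), with an unadjusted p of 0.00815 and an adjusted p of 0.654. By unadjusted p it ranked 679 among the 54613 probe sets. Its mean log2 signal of 7.57 lay not far above that of the median probe set, 6.76. Without replicate 1 of the scrambled group the difference was 0.40, and without replicate 1 of the VAMP7 siRNA group 0.47.

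The other TERT probe set did not show the same separation. It read 58.9, 35.4 and 45.8 on the VAMP7 siRNA arrays and 42.9, 39.9 and 39.6 on the scrambled arrays. The groups overlapped, and only replicate 1 of the VAMP7 siRNA group was clearly higher. Its log2 fold change was 0.08 (SE 0.119, 95% interval -0.20 to 0.36), or -0.01 without that array. This probe set lay below the median signal, where the offset of 50 compresses differences. With the mean of both probe sets, TERT was at 0.31 (adjusted p = 0.75).

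The stretch of the TERT promoter below is shown because it holds an E-box, the palindrome CACGTG that MYC and its partner MAX bind and through which MYC is known to raise TERT transcription. It covers bases 250 to 101 before the RefSeq start of TERT, chr5:1295169-1295318 (GRCh38.p14, minus strand), printed 5′ to 3′ with the E-box in capitals, 163 bases before the start.
TERT: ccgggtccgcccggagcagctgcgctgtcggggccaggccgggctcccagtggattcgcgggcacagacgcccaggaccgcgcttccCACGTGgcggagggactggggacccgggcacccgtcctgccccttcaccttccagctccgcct
An E-box occurred in the 250 bases before the start in 2 of the 8 genes searched, TERT and NOP10, and in 6.34% of the 35116 promoters of the RefSeq table. TERF1 and TERF2 were not searched. Motifs were sought on both strands. The GC box GGGCGG, bound by SP1, occurred on either strand in 7 of the 8 and in 42.6% of all promoters, in TERT 244 and 86 bases before the start. The ETS core CCGGAA occurred on either strand in 4 of the 8 and in 14.5% of all. The shares of all promoters count each entry, while TINF2, with 2 entries, was counted as 1 gene. Its ETS cores did not lie in both entries. No E-box overlapped another motif. A match of letters is a description and not a site of binding.

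The dyskerin complex showed no called change. For the DKC1 locus, which encodes the pseudouridine synthase of the H/ACA particle, the brightest probe set read 8637, 9149 and 9089 on the VAMP7 siRNA arrays and 8252, 8722 and 10495 on the scrambled arrays. The groups overlapped fully, with the third scrambled array the highest. On the log2 scale the groups differed by -0.02 (SE 0.121, 95% interval -0.31 to 0.26). The second probe set by brightness was at 0.05 and the dimmest at -0.01. The second read 6860 on replicate 1 of the VAMP7 siRNA group against 5263 and 5369 on its other arrays, and was at -0.07 without that replicate.

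NOP10, the smallest protein of the H/ACA particle, had the lowest log2 fold change of the 21 probe sets. It read 7303, 8140 and 7833 on the VAMP7 siRNA arrays, against 8841, 8333 and 10909 on the scrambled arrays. All 3 VAMP7 siRNA arrays lay below all 3 scrambled arrays, but the gap between the nearest arrays was small beside the spread of the scrambled group. The mean was 7759 ± 424 on the VAMP7 siRNA arrays and 9361 ± 1364 on the scrambled arrays (SD, n = 3 each), so that 82.9% of the scrambled signal was present. On the log2 scale this was -0.26 (SE 0.131, 95% interval -0.57 to 0.05), with an adjusted p of 0.781, and -0.15 without replicate 3 of the scrambled group.

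NHP2, the H/ACA core protein that joins the particle through NOP10, read 7377, 9302 and 9049 on the VAMP7 siRNA arrays and 8996, 9968 and 10428 on the scrambled arrays. The groups overlapped, and replicate 1 of the VAMP7 siRNA group was the lowest of all 6. On the log2 scale the difference was -0.20 (SE 0.129, 95% interval -0.50 to 0.11), with an adjusted p of 0.835. Without that replicate it was -0.09.

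The promoters of NOP10 and NHP2 are set beside each other because both genes encode partners in 1 particle and their upstream letters differ: NOP10 has a pair of E-boxes and no GC box, NHP2 has 5 GC boxes and no E-box. Both are the 250 bases before the RefSeq start, 5′ to 3′ on the minus strand of GRCh38.p14, NOP10 at chr15:34343137-34343386 and NHP2 at chr5:178153886-178154135. Capitals mark the E-boxes in NOP10, 170 and 11 bases before the start, and the GC boxes in NHP2, which all read CCGCCC on the printed strand.
NOP10: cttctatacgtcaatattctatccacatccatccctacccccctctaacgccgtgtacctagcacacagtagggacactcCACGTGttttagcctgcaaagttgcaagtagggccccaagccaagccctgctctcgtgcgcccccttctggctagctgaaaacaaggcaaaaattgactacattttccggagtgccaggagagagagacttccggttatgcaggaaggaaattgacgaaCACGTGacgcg
NHP2: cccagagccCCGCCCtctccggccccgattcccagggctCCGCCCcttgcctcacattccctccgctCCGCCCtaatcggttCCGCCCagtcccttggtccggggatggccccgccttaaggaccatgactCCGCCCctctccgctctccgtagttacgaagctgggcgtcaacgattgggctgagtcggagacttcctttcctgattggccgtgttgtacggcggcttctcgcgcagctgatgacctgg
Of the 8 genes searched, those with an E-box in this window were TERT, at 0.53 and 0.08 on its probe sets, and NOP10, at -0.26. Neither passed the test, and a link between the motif and the fold changes was not tested.

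**Figure D2:**
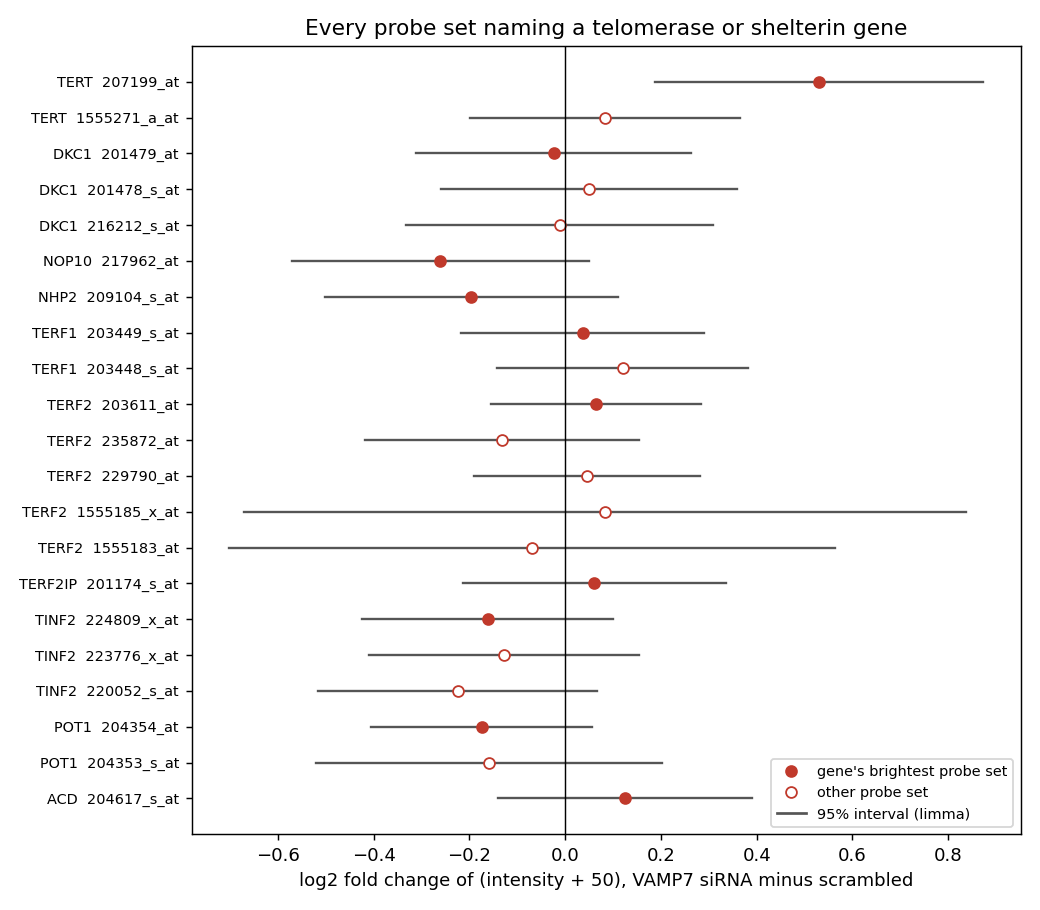
Log2 fold change of (intensity + 50), VAMP7 siRNA minus scrambled, for all 21 probe sets that name a telomerase or shelterin gene; filled circles are the gene's brightest probe set, open circles its others, and lines the 95% intervals of limma. Only the interval of the brighter TERT probe set, 0.19 to 0.87, lies clear of 0, and the second TERT probe set lies at 0.08.

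The 6 shelterin genes had 14 probe sets, 7 above 0 and 7 below, from -0.22 to 0.13, with 0 called and 0 at an unadjusted p under 0.05. TERF1, the double-strand binder that negatively regulates telomere length, is highly made in pluripotent cells. Its brighter probe set read 2370, 2708 and 2584 on the VAMP7 siRNA arrays and 2547, 2610 and 2305 on the scrambled arrays. These overlapped, with a difference on the log2 scale of 0.04 (SE 0.107, 95% interval -0.22 to 0.29). The other was at 0.12, with 1478 to 1759 on the VAMP7 siRNA arrays and 1420 to 1588 on the scrambled arrays, and with 1 array left out it lay between 0.07 (without replicate 1 of the VAMP7 siRNA group) and 0.19 (without replicate 3 of that group).

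TERF2, which protects the end from being joined and folds it into a loop, had 5 probe sets. The brightest read 1138, 1100 and 1136 on the VAMP7 siRNA arrays, against 1090, 1037 and 1095 on the scrambled arrays. These did not overlap, yet the highest scrambled and lowest VAMP7 siRNA array were nearly equal, and the means were 1125 ± 21.3 and 1074 ± 32.5 (SD, n = 3 each). The log2 fold change of 0.06 (SE 0.0924, adjusted p = 0.928) has a 95% interval of 0.898-fold to 1.22-fold. The next by brightness, also above the median signal, were at -0.13 and 0.05. With 1 array left out, these lay between -0.21 and -0.05 and between 0.01 and 0.09. The dimmest 2 read 3.76 to 65.8 over the VAMP7 siRNA arrays and 8.30 to 67.8 over the scrambled arrays, below the median signal, with standard errors of 0.318 and 0.267. The smallest and the largest standard error among the 21 probe sets thus both belonged to TERF2.

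POT1, which covers the single-stranded overhang and limits access of telomerase to it, read 2161, 2190 and 2139 on its brighter probe set on the VAMP7 siRNA arrays, against 2352, 2622 and 2376 on the scrambled arrays. The groups did not overlap, and the VAMP7 siRNA arrays varied by 1.18% of their mean (SD). On the log2 scale the difference was -0.17 (SE 0.0974, 95% interval -0.40 to 0.06; adjusted p = 0.809), the lowest of the brightest shelterin probe sets. The second probe set was at -0.16, but there the groups overlapped, with 562.5, 848.8 and 731.8 on the VAMP7 siRNA arrays and 793.4, 808.8 and 777.7 on the scrambled arrays. Without replicate 1 of the VAMP7 siRNA group that probe set was at -0.01.

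TINF2, the TIN2 protein that bridges TERF1, TERF2 and ACD, lay below 0 on all 3 of its probe sets, at -0.16 for the brightest, -0.13 for the second and -0.22 for the dimmest. The brightest read 747.6, 785.7 and 711.4 on the VAMP7 siRNA arrays and 817.8, 779.5 and 937.1 on the scrambled arrays, overlapping by 1 array of each group. The dimmest read 217.6, 226.2 and 244.3 on the VAMP7 siRNA arrays and 320.3, 238.8 and 274.5 on the scrambled arrays, again overlapping. Adjusted p ran from 0.807 to 0.884, so none passed. Single scrambled arrays moved these values: the brightest was at -0.09 without replicate 3, and without replicate 1 the second was at -0.04 and the dimmest at -0.13. The second was also at -0.08 without replicate 1 of the VAMP7 siRNA group and at -0.20 without replicate 2 of the scrambled group. The 3 probe sets measure 1 gene in the same RNA and are not independent. The brightest and the second carry the array maker's mark for probes open to cross-hybridisation.

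ACD, the TPP1 protein that recruits telomerase through TERT, read 1388, 1234 and 1229 on the VAMP7 siRNA arrays and 1252, 1062 and 1207 on the scrambled arrays. The groups overlapped, and on the log2 scale they differed by 0.13 (SE 0.112, 95% interval -0.14 to 0.39). This was 0.06 without replicate 2 of the scrambled group and 0.07 without replicate 1 of the VAMP7 siRNA group. TERF2IP, the RAP1 partner of TERF2, read 1555, 1294 and 1304 on the VAMP7 siRNA arrays and 1308, 1250 and 1408 on the scrambled arrays. Its log2 fold change of 0.06 (SE 0.116) was -0.02 without replicate 1 of the VAMP7 siRNA group. Among the 10 genes, all probe sets lay above 0 for 4, below 0 for 4 and on both sides for 2, DKC1 and TERF2.

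**Figure D3:**
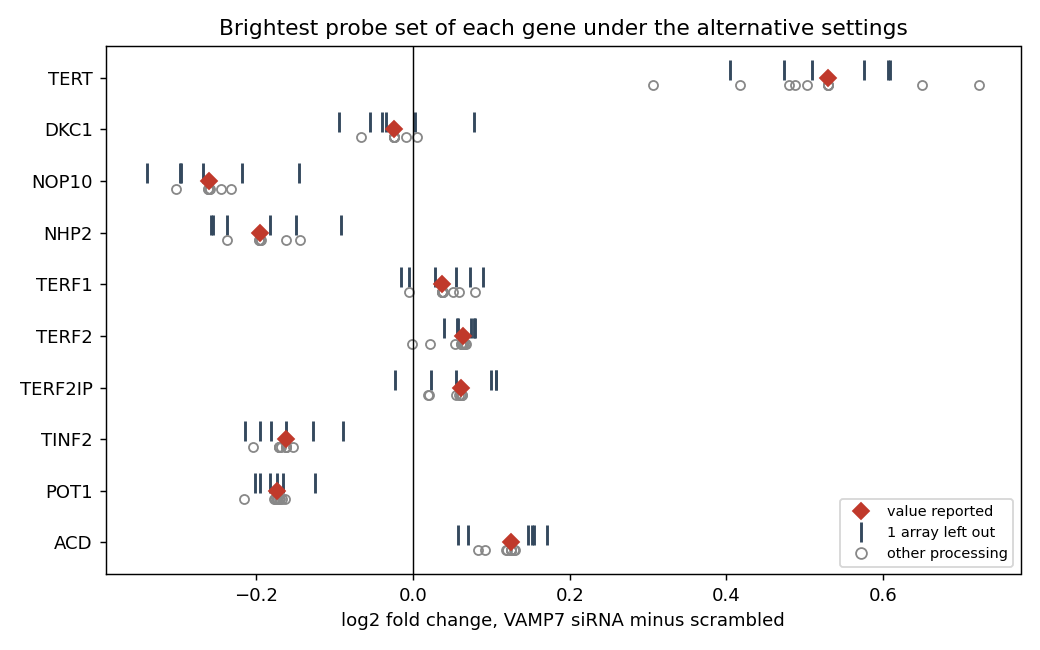
Log2 fold change of the brightest probe set of each of the 10 genes, VAMP7 siRNA minus scrambled; the diamond is the value reported, the bars the values with 1 array left out and the open circles those under other processing. For TERT, TERF1, TERF2, TINF2 and POT1, 1 open circle instead averages all probe sets of the gene. TERT stays between 0.31 (that average, otherwise at least 0.40) and 0.72. NOP10, NHP2, TINF2 and POT1 stay below 0 and ACD above 0. DKC1, TERF1 and TERF2IP cross 0, while TERF2 does so only in that average, at -0.0014.

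The wider telomere machinery was read from 7 lists of other genes, each gene by its brightest probe set naming 1 gene. Of 121 listed genes 113 were measured, and 0 were called, against 0.00506% of all 19775 genes. At an unadjusted p under 0.05, 3 were higher and 2 lower, against 5.92% of all genes (3.29% higher and 2.63% lower). The groups did not overlap for 10 higher and 6 lower genes, against 13% of all genes. The median log2 fold change was 0.01 over the 113 and 0.003 over all genes.

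Genes that build telomerase and mature its RNA split 9 above and 8 below 0 (median 0.02). SMG6, a nuclease of nonsense-mediated decay that also binds telomerase, was at 0.26, with 248.6, 223.6 and 265.2 on the VAMP7 siRNA arrays and 217.0, 223.9 and 153.7 on the scrambled arrays. SHQ1, the chaperone that holds dyskerin before assembly, was at -0.19, with 1437, 1716 and 1883 on the VAMP7 siRNA arrays and 1967, 1776 and 2011 on the scrambled arrays. Both genes had overlapping groups. SMG6 was at 0.13 without replicate 3 of the scrambled group, and SHQ1 at -0.09 without replicate 1 of the VAMP7 siRNA group. The other ribonucleoprotein genes split 6 and 6 (median 0.04), with the box C/D core protein NOP58 at 0.18 and ZNHIT3, an assembly factor, at -0.14. The TRiC chaperonin, which folds the telomerase trafficking protein WRAP53, ran from -0.08 for CCT3 to 0.06 for CCT5; with 1 array left out CCT3 lay between -0.17 and -0.01 and CCT5 between 0.02 and 0.13.

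The CST and telomere replication list had 6 of 17 genes above 0 and 11 below (median -0.07). FEN1, the flap endonuclease that also processes lagging-strand telomeres, read 4413, 4579 and 5349 on the VAMP7 siRNA arrays, against 7325, 7838 and 7738 on the scrambled arrays. The groups were well apart, with a log2 fold change of -0.67 (SE 0.112, adjusted p = 0.534). A second FEN1 probe set was at 0.09 with overlapping groups, and the mean of both at -0.29. BLM, a helicase of replication forks, was at 0.10, and at 0.05 without replicate 2 of the scrambled group.

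Shelterin partners and damage signalling genes split 11 above and 9 below 0 (median 0.001). ATM, the kinase that answers uncapped ends, read 1281, 1202 and 1200 on the VAMP7 siRNA arrays, against 1082, 998.9 and 946.2 on the scrambled arrays, without overlap. Its log2 fold change was 0.27 (SE 0.101, adjusted p = 0.733), while its other 5 probe sets ran from -0.20 to 0.11 and the mean over all of them was at 0.004. FBXO4, which marks TERF1 for degradation, read 19.5, 50.1 and 16.1 on the VAMP7 siRNA arrays and 42.3, 49.1 and 51.3 on the scrambled arrays, below the median signal. These overlapped, and its value of -0.34 was -0.52 without replicate 2 of the VAMP7 siRNA group. The other FBXO4 probe sets were at -0.01 and -0.04, and the mean over its probe sets was at -0.13. In the list of telomere chromatin and alternative lengthening genes, 11 of 18 lay above 0 (median 0.04), with the chromatin remodeller ATRX at 0.15 and the histone methyltransferase SUV39H2 at -0.13. Without replicate 1 of the VAMP7 siRNA group these were at 0.08 and 0.06. The other 3 ATRX probe sets ran from -0.01 to 0.24, and the other SUV39H2 probe set was at 0.14.

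Of 22 transcription factors listed for the TERT promoter, activators and repressors together, 16 lay above 0 (72.7%, against 50.8% of all genes). Their median was 0.10, against 0.003 over all genes. The list was chosen with earlier results of these data known, and a joint change was not tested. MXD1, which competes with MYC for MAX and represses TERT, was at 0.35 (SE 0.131, adjusted p = 0.733), with 173.2, 145.9 and 204.4 on the VAMP7 siRNA arrays, against 114.4, 120.7 and 140.4 on the scrambled arrays. The groups did not overlap, but the other MXD1 probe sets, both dim, were at -0.25, also without overlap, and at -0.18. ZNF148, a zinc finger protein of GC-rich promoters, was at -0.23, and its other 6 probe sets ran from -0.23 to 0.12, with a mean over all of them of -0.04. The remaining proteins of this list that can bind an E-box were named after their values had been seen. MYC was at 0.10, MYCN at 0.09, MAX at 0.02, MNT at 0.13, USF1 at 0.24 and USF2 at -0.29, all with overlapping groups. Their standard errors ran from 0.117 for MYC to 0.269 for MNT, with 0.205 for USF1 and 0.178 for USF2. Only their brightest probe sets are given.

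**Figure D4:**
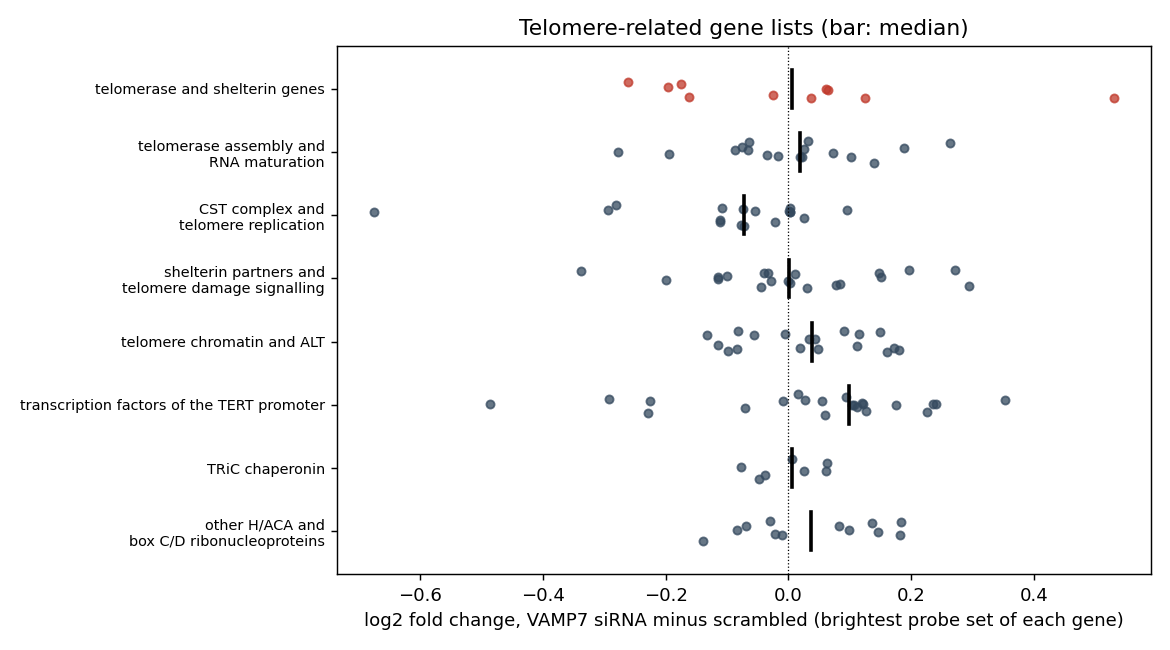
Log2 fold change, VAMP7 siRNA minus scrambled, of each gene's brightest probe set in the 10 telomerase and shelterin genes (top) and the 7 lists of other telomere-related genes; each point is a gene and the bar is the list's median. Medians run from -0.07 for the CST and replication list to 0.10 for the transcription factors of the TERT promoter, and the point farthest to the left is FEN1 at -0.67.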

How the data were processed

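The authors deposited 1 table of intensity values on a linear scale, 1 per probe set and array. RMA is named in the submitters' processing notes without a version, but RMA gives log2 values, whereas these are linear. The software and background correction have no record in the sources used here. A mean trimmed by 2% at each end was 500.07 on every array. Names of probe sets come from GEO's platform annotation, with symbols updated through gene identifiers (99.87% of 41091 single-gene probe sets matched); 62 array controls were left out. Values were put on the log2 scale after an offset of 50 and tested with limma 3.58.1 in R 4.3.3 (lmFit, eBayes, Benjamini-Hochberg over 54613 probe sets), 3 arrays a group, with no filter on dim probe sets. The code was tested on simulated arrays with known changes and independent noise. They held no array set apart, unlike replicate 1 of the VAMP7 siRNA group. No array repeated another's values. The members, lists and offset were chosen with earlier results of these data known. Genes named were the 10 members with every probe set, VAMP7 and, from each of 7 lists, the gene of smallest p on either side of 0; others are said to be chosen later. The probe set of highest mean stood for its gene, and promoters came from the RefSeq tables (GRCh38.p14). Alternatives covered the offset, normalization, a filter on dim probe sets, eBayes options, the unit of the fit, array weights, a replicate block and the omission of each array. The number of arrays limits the precision.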

Additional observations from a re-analysis of the deposited data

How the results depend on the processing

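In each of 17 alternatives, 0 telomerase and shelterin probe sets and 0 pathway genes were called, and the VAMP7 log2 fold change stayed past the threshold, from -4.09 to -3.42; with an array left out it ran from -3.79 to -3.65. The count of all probe sets called was 1, but 3 with an offset of 1, 3 with an intensity trend and robust eBayes and 2 genes when each gene's probe sets were averaged. At an unadjusted p under 0.05, 1 member probe set became 2 with quantile normalization (the dimmest TINF2 probe set added), with the trend and robust option (NOP10 added) and without scrambled replicate 2 (the same TINF2 probe set added); with other single arrays left out it was 1. NOP10, NHP2, TINF2, POT1, ACD and TERT kept their direction in each alternative that gave a value, with adjusted p of at least 0.503. Their values are those of the brightest probe set, except where all probe sets of each gene were averaged. With single-gene probe sets as the unit of the fit, the DKC1 locus had no value.

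Some directions changed. With array weights the second DKC1 probe set was at -0.0054 and the dimmest at 0.0097. Quantile normalization put DKC1 at 0.0048, and median centring put TERF1 at -0.0048. Median centring lowered each log2 fold change by the same amount, that of ACD from 0.13 to 0.08. Counts above and below 0, and list medians near 0, therefore depend on how the arrays were scaled. Averaging each gene's probe sets put MXD1 at -0.025 (0.35 on its brightest probe set), SUV39H2 at 0.0051 (-0.13) and TERF2 at -0.0014 (0.06). With 1 array left out, the range crossed 0 for DKC1 (-0.095 to 0.078), its second probe set (-0.071 to 0.118) and its dimmest (-0.101 to 0.068), for SUV39H2 (-0.229 to 0.057), TERF1 (-0.015 to 0.089), TERF2IP (-0.023 to 0.105), the fourth TERF2 probe set (-0.131 to 0.392) and the dimmest (-0.321 to 0.126), and for the dimmer TERT probe set (-0.0059 to 0.169). Replicate 1 of the VAMP7 siRNA group was the only array whose omission turned TERF2IP, SUV39H2, the second DKC1 probe set and the dimmer TERT probe set. Its omission also turned the brightest and dimmest DKC1 probe sets and the dimmest TERF2 probe set, which the omission of other arrays turned as well. The causes were not tested.

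The replicate number as a block called 0 members and left TERT at 0.53 (adjusted p = 0.791) and VAMP7 at -3.71 (adjusted p = 0.0295). Same-numbered arrays did not deviate together (r = -0.01, 0.01 and -0.02 across probe sets, which are not independent), so the numbers were not used to pair them.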

Other observations

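In the telomere lists, the groups did not overlap for 10 higher and 6 lower of 113 genes, against 13% of all genes. The 4 of them given here were chosen after their values had been seen, and none passed the test. Each is read by its brightest probe set, and any other probe sets are not given. EXO1, the exonuclease that resects chromosome ends, read 962.2, 1027 and 952.1 on the VAMP7 siRNA arrays, against 1275, 1105 and 1266 on the scrambled arrays, a log2 fold change of -0.29 (SE 0.105, adjusted p = 0.726). SLX4, a scaffold of nucleases that TERF2 brings to telomeres, read 241.1, 235.6 and 220.5 on the VAMP7 siRNA arrays, against 200.1, 185.8 and 156.8 on the scrambled arrays, a log2 fold change of 0.29 (adjusted p = 0.741). MEN1, the menin protein that represses TERT, was at 0.23, and GABPB1, a partner of the ETS factor GABPA, at -0.23. Its partner GABPA was at 0.06 with overlapping groups.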
